A study of Mus musculus with 7 samples.

Results

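Galectins and interferon-induced transmembrane (Ifitm) genes were followed in single cells of the ventricular-subventricular zone (V-SVZ), the stem cell niche along the lateral ventricles of the mouse brain. The set held 9 of the 32285 annotated genes: 5 galectins (Lgals1, Lgals2, Lgals3, Lgals8 and Lgals9) and 4 Ifitm genes (Ifitm2, Ifitm3, Ifitm6 and Ifitm10). They were selected by gene symbol, and the selection used measured values: Lgals2 and Ifitm6 had been seen to be raised in stem-cell-like cells of the cKO libraries. The difference between cKO and Control libraries in those cells is therefore given as a description without a test. Of the 7 droplet libraries, 3 were Control, 3 came from mice with a conditional deletion of Prdm16 (cKO) and 1 from mice with a deletion of both Prdm16 and Vcam1 (DKO). Control mice carried the genotype written as Prdmflox/flox and no Cre. The cKO mice were hGFAP-Cre+/-; Prdm16flox/flox, and the DKO mice were hGFAP-Cre+/-; Prdm16flox/flox; Vcam1flox/flox. Per the study, each library pooled the dissected lateral walls of 2 to 3 mice of both sexes at postnatal days 31 to 33, and the human GFAP promoter drives Cre in astrocytes and, from before birth, in radial glia.

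Galectins are lectins that bind beta-galactoside sugars on glycoproteins and glycolipids. Lgals1 and Lgals2 encode galectins with a single sugar-binding domain that act as dimers, Lgals3 encodes the chimera-type galectin with a long N-terminal tail, and Lgals8 and Lgals9 encode tandem-repeat galectins with a pair of linked domains. Lgals3 is known in activated microglia, in macrophages and in ependymal cells of the niche. The Ifitm genes encode small membrane proteins. Ifitm2 and Ifitm3 are induced by interferons and restrict the entry of enveloped viruses, whereas Ifitm10 is a divergent relative outside the main gene cluster. Less is established about Ifitm6.

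The genes lay at 5 places of the GRCm38 genome. Lgals1 (chr15:78926725-78930465, plus strand) was 71.2 kb from Lgals2 (chr15:78850860-78855529, minus strand). Lgals3 was at chr14:47367751-47386160 on the plus strand, Lgals8 at chr13:12439415-12464944 on the minus strand and Lgals9 at chr11:78962974-78984946 on the minus strand. All 4 Ifitm genes were on the minus strand of chromosome 7: Ifitm2 at chr7:140954837-140955987, Ifitm3 at chr7:141009586-141010770, Ifitm6 at chr7:141015699-141017924 and Ifitm10 at chr7:142325837-142373753. Ifitm3 and Ifitm6 were separated by 4.93 kb, and Ifitm10 lay 1308 kb beyond Ifitm6. The Ifitm genes share similar coding sequence, so reads that could not be placed on a single gene may have been lost or split among them in the authors' counting.

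RefSeq promoter windows of GRCm38.p6, from 250 bases before to 50 bases after each start site, were matched for 8 of the 9 genes, in 10 windows. For Lgals2 and Ifitm6, which were high in the same libraries, the 250 bases before the start site are shown on the gene's strand, at chr15:78855530-78855779 and chr7:141016893-141017142. RefSeq start sites can differ from the 5′ ends given above: that of Ifitm6 lies 1032 bases inside the gene, those of Ifitm2 and Ifitm3 26 bases and that of Lgals9 22 bases, while that of Lgals2 is at its end. The windows of Lgals3 (chr14:47373610-47373909) and Lgals8 (chr13:12461689-12461988) lie wholly inside these genes. The 5′ ends of Lgals3 and Lgals8 given above were therefore not searched. Capitals mark a match to the gamma-activated site (GAS) motif TTCNNNGAA, searched on both strands.
Lgals2: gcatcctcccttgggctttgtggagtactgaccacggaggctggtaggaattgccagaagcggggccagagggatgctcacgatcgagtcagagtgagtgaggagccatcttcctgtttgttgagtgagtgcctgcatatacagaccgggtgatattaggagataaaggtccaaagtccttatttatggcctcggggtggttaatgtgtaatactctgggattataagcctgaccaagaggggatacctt
Ifitm6: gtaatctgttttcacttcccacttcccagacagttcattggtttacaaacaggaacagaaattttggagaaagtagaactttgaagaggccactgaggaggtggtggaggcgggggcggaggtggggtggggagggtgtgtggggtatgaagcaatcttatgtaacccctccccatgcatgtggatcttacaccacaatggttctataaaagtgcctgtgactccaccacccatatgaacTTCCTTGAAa

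The interferon-stimulated response element (ISRE) motif, GAAA followed by any 2 bases and a second GAAA and searched on both strands, was found in the windows of Ifitm2, Ifitm3 and Lgals9. It occurs in 3.44% of the 32851 RefSeq promoter windows, and the GAS motif in 8.30%. The 30 bases around each ISRE match are shown on the gene's strand, with the matches in capitals. In Ifitm3 both ISRE matches and a GAS match that shares bases with the second one fill most of the stretch.
Ifitm2, chr7:140955988-140956017: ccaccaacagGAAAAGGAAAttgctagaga
Ifitm3, chr7:141010714-141010743: gGAAAAGGAAAcTTCTGAGAAACCGAAAct
Lgals9, before the start site, chr11:78984960-78984989: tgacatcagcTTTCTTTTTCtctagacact
Lgals9, after the start site, chr11:78984890-78984919: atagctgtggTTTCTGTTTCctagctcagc
The windows of Lgals2, Lgals3, Lgals8 and Ifitm10 held neither motif. A match is a description of the letters and was not tested as a binding site.

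After filtering, 43346 of 65049 barcodes were kept as cells, 1868 to 9502 per library, with medians of 4959.5 to 8317.5 unique molecular identifiers (UMIs) per cell and 45758003 to 141353017 UMIs per library in all. Clusters were named from markers as "-like" classes, and 38029 cells fell into 11 classes that were compared. The cluster nearest to stem cells (5531 cells) was led by Thbs4, Fxyd1 and Gfap and had 4 stem cell markers (Gfap, Thbs4, Hes5 and Fabp7) and as many astrocyte markers raised, so it could not be named as a stem cell class by marker count and is called the Thbs4/Gfap cluster. Between libraries, 340 barcodes were shared, in 731 cells, and edgeR called no gene of the set in the classes tested below with or without those cells. In the Thbs4/Gfap cluster, Prdm16 was at 62.6 to 73.8 CPM (UMIs of the gene per 1000000 UMIs of the class in a library) in the Control libraries, 46.2 to 54.8 CPM in the cKO libraries and 55.5 CPM in the DKO library. Vcam1 was at 109 to 155, 151 to 183 and 89.0 CPM in the same order. A 3′ count does not show the loss of floxed exons. Control library 2 stood apart for Lgals1 through a group of shallow cells, which is described at the end, and some of the results that it moved are given with and without that library.

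Each gene had its own distribution over the 11 compared classes, shown here as CPM, with medians over the 6 libraries other than Control library 2. Levels are not compared between genes, since 3′ counts depend on each gene's 3′ end. Among the compared classes, Lgals1 was highest in mural-like cells (pericytes and smooth muscle) with a median of 169.9 CPM and a range of 119 to 264 CPM. Clusters that were not compared were higher, with medians of 347 CPM in the cluster led by Lgals1 and 346 CPM in T cell-like cells (85 cells). Microglia-like cells followed with 55.9 CPM, and the ranges of these 2 classes overlapped. Lgals3 was highest in ependymal-like cells, the ciliated lining of the ventricle, at 228 CPM, and all 6 libraries lay above the next compared class, the Thbs4/Gfap cluster, at 64.4 CPM. Ependymal-like cells and the Thbs4/Gfap cluster held 44.2% and 27.1% of all 12206 Lgals3 UMIs. Lgals8 was the most even member: its class medians ran from 63.3 CPM in microglia-like cells through 46.6 CPM in endothelial-like cells and 44.3 CPM in mural-like cells to 10.4 CPM in TAP-like cells, the dividing precursors.

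Lgals9 marked endothelial-like cells at 118 CPM and microglia-like cells at 91.5 CPM, whose ranges overlapped. The next compared class, mural-like cells, was at 8.87 CPM, below every library of both. Endothelial-like cells alone held 58.4% of the 3561 Lgals9 UMIs. Lgals2 was scarce everywhere, with 304 UMIs in 262 of the 43346 cells. Its class medians were 1.78 CPM in the Thbs4/Gfap cluster, 1.30 CPM in astrocyte-like, 1.29 CPM in OPC-like and 1.11 CPM in oligodendrocyte-like cells, and their ranges overlapped. This order mixes genotypes: in the Control libraries Lgals2 was at 0.69 to 1.42 CPM in oligodendrocyte-like cells and at 0 to 0.18 CPM in the Thbs4/Gfap cluster, and in the cKO libraries at 0.79 to 2.59 and 2.19 to 7.82 CPM. Oligodendrocyte-like cells held 38.2% of the Lgals2 UMIs and the Thbs4/Gfap cluster 31.6%. Neuron-like cells held 0 Lgals2 UMIs.

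By these medians, Ifitm2 and Ifitm3 were highest in vascular cells. Ifitm2 was highest in mural-like cells at 560.3 CPM, then in endothelial-like cells at 336 CPM and the Thbs4/Gfap cluster at 59.1 CPM, and no 2 of these neighbours overlapped. The cluster led by Lgals1, which was not compared, had an Ifitm2 median of 480 CPM. Ifitm3 was highest in endothelial-like cells at 1215 CPM, with every library above all mural-like values, though ependymal-like cells of the DKO library reached 1219 CPM. Mural-like cells at 639 CPM and ependymal-like cells at 584 CPM overlapped, and the Thbs4/Gfap cluster followed at 131 CPM. Ifitm6 was scarce, with 386 UMIs in 288 cells, of which 38.3% lay in the Thbs4/Gfap cluster and 24.9% in ependymal-like cells. Its medians were 5.24 CPM in ependymal-like cells and 3.09 CPM in the Thbs4/Gfap cluster, whose ranges overlapped. Ependymal-like cells were higher in every Control library, and the Thbs4/Gfap cluster was higher in cKO libraries 2 and 3, while endothelial-like cells held 0 Ifitm6 UMIs. The cluster led by Lgals1, which was not compared, was higher by median, at 13.8 CPM, and held 16.8% of the Ifitm6 UMIs. Ifitm10 was at 36.6 CPM in microglia-like cells, 21.8 CPM in OPC-like cells (oligodendrocyte precursors) and 2.92 CPM in neuron-like cells, with no overlap between these neighbours.

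**Figure D1:**
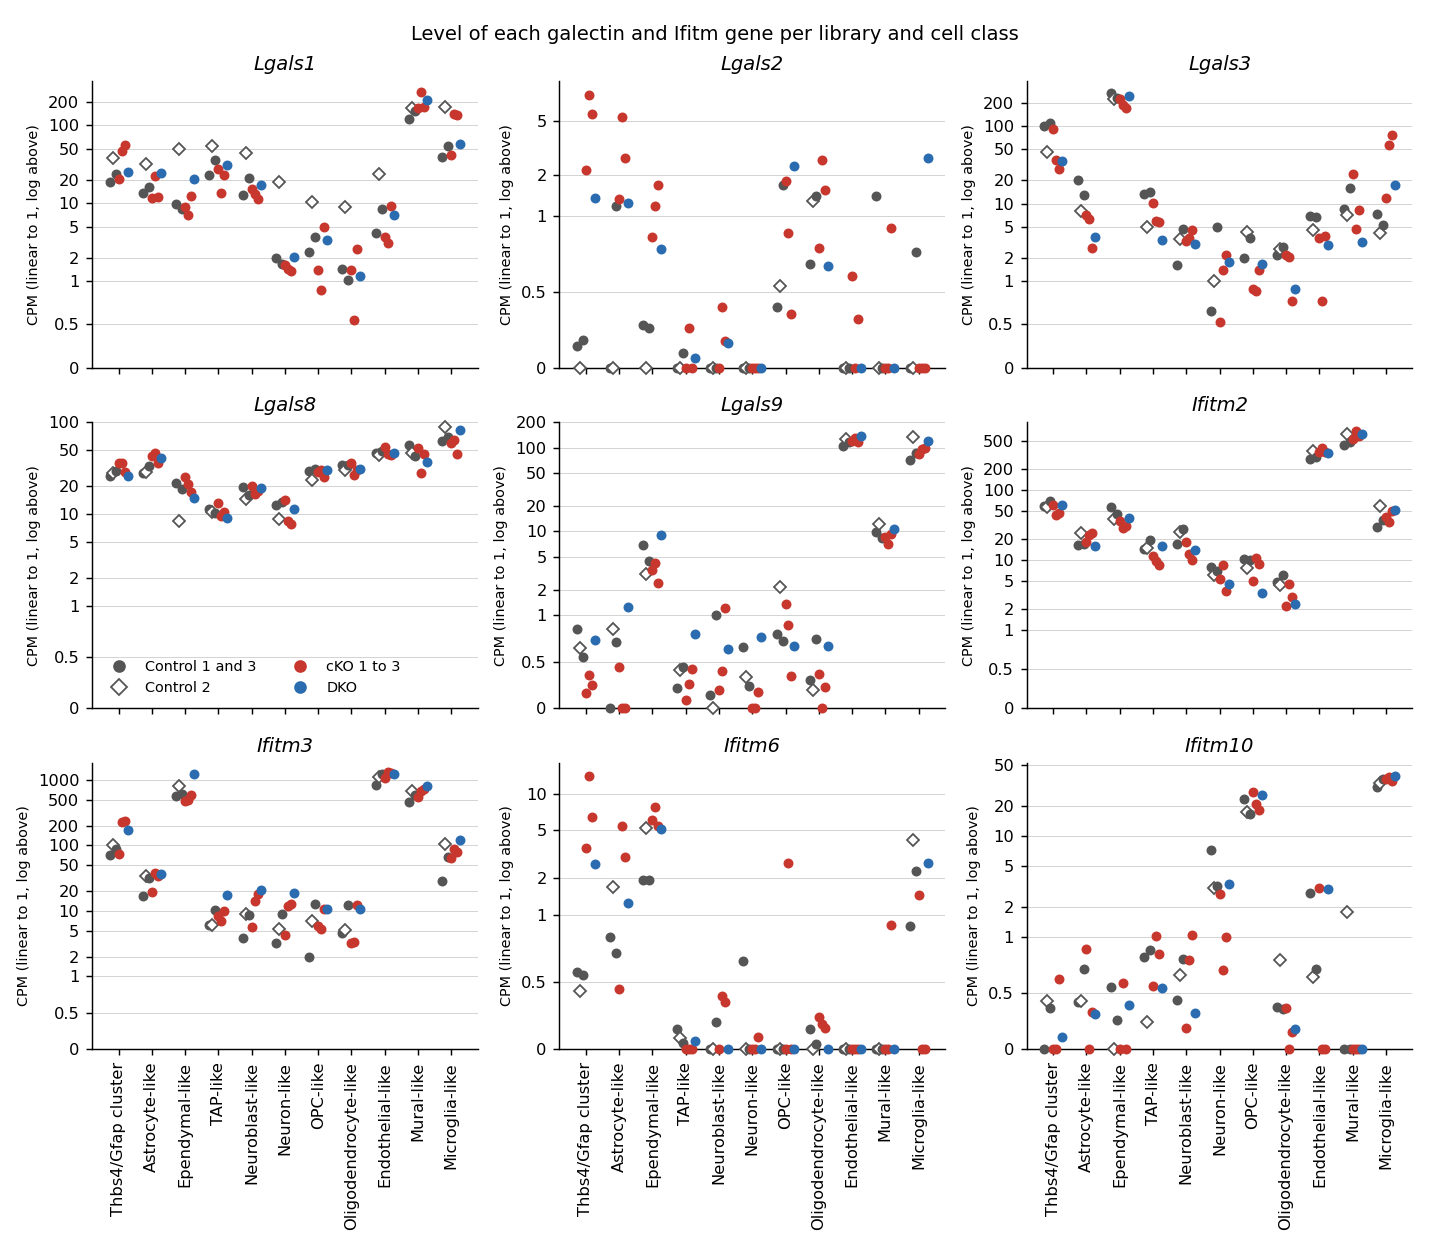
Level of each gene in CPM (linear up to 1 and logarithmic above) in the 11 classes, 1 point per library, with Control library 2 as an open diamond. By median, Lgals3 peaks in ependymal-like cells, Lgals9 and Ifitm3 in endothelial-like cells, Ifitm2 in mural-like cells and Ifitm10 in microglia-like cells, and Lgals2 stays below 10 CPM in every library and class.

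In the Thbs4/Gfap cluster, Lgals2 and Ifitm6 were high in the cKO libraries, which is the pattern they were chosen for. Lgals2 was at 0.14, 0 and 0.18 CPM in Control libraries 1, 2 and 3 against 2.19, 7.82 and 5.65 CPM in the cKO libraries in the same order. These values stood on 1, 0 and 2 UMIs against 13, 22 and 45 UMIs. The count of 0 in Control library 2 does not show absence, since 3 UMIs there would be 0.65 CPM. Every cKO library lay above every Control library, and with counts pooled over libraries the ratio was 35.9 (95% exact counting interval 11.9 to 178). Such intervals cover counting error only and leave out the spread between libraries. As Lgals2 and Ifitm6 were chosen on this contrast, their ratios, intervals and SEs here are a description and no support for a difference.

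Ifitm6 was at 0.57, 0.43 and 0.55 CPM in the Control libraries and at 3.54, 13.9 and 6.40 CPM in the cKO libraries, without overlap. Its pooled ratio was 12.5 (6.85 to 24.8), from 12 and 111 UMIs. The fitted log2 fold changes were 5.18 (SE 0.75) for Lgals2 and 3.88 (SE 0.58) for Ifitm6, and 4.86 and 3.79 without Control library 2. Both genes were scarce even in the cKO libraries: an Lgals2 UMI was seen in 11 of 895, 16 of 213 and 35 of 668 cells, and an Ifitm6 UMI in 19, 23 and 45 cells. The file headers name different Cell Ranger versions, which both groups contain. As a description of the same values, cKO minus Control was 4.94 CPM for Lgals2 and 8.20 CPM for Ifitm6 in the libraries of version 6.0.1, and 5.46 and 5.85 CPM between the 1 cKO and 1 Control library of version 6.1.1.

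The other members showed smaller differences in this cluster, given without a test because the contrast is the same. Ifitm3 was at 70.9, 102 and 87.0 CPM in the Control libraries and at 74.5, 227 and 239.9 CPM in the cKO libraries. Only cKO library 1 lay among the controls, and the log2 fold change was 1.16 (SE 0.46), or 1.54 without that library. Lgals3 moved the other way, at 100.3, 46.1 and 108 CPM in the Control libraries and 92.2, 36.6 and 28.4 CPM in the cKO libraries. Its log2 fold change was -0.63 (SE 0.54), and -1.31 without cKO library 1, which again lay near the controls. Lgals1 was at 18.8, 38.3 and 23.6 CPM against 20.4, 46.6 and 56.5 CPM, with a log2 fold change of 0.73 (SE 0.45), or 1.03 without Control library 2. The groups overlapped for Ifitm3, Lgals3 and Lgals1. Without Control library 2, Lgals3 did not overlap, and its log2 fold change was -0.93. How many of all genes then lay apart was not counted.

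Lgals8 ran from 26.3 to 29.6 CPM in the Control libraries and from 28.6 to 35.9 CPM in the cKO libraries, and Ifitm2 from 56.7 to 68.3 CPM and from 43.4 to 59.7 CPM. Their log2 fold changes were 0.33 (SE 0.16) and -0.20 (SE 0.17). Lgals9 and Ifitm10, at most 0.86 and 0.63 CPM in any of these 6 libraries, did not pass the filter on low counts. Markers of other classes also differed between these libraries. The 6 astrocyte markers together were at 1400 to 1417 CPM in the Control libraries and at 1545, 2127 and 2214 CPM in the cKO libraries, and none of them was at 0. The 6 ependymal markers were at 193 to 268 CPM against 239.9, 381 and 367 CPM, and the 6 endothelial markers at 18.2 to 27.2 CPM against 25.3, 43.4 and 45.4 CPM, both with overlap. The 6 oligodendrocyte markers were at 257, 290.5 and 303 CPM against 227, 416 and 498 CPM, also with overlap. The 6 mural and 6 fibroblast markers were lower in cKO without overlap, at 111 to 139 against 77.5 to 96.6 CPM and at 25.6 to 38.8 against 13.2 to 21.7 CPM. The part of these markers in the differences of Lgals2, Ifitm6 and Ifitm3 was not tested.

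**Figure D2:**
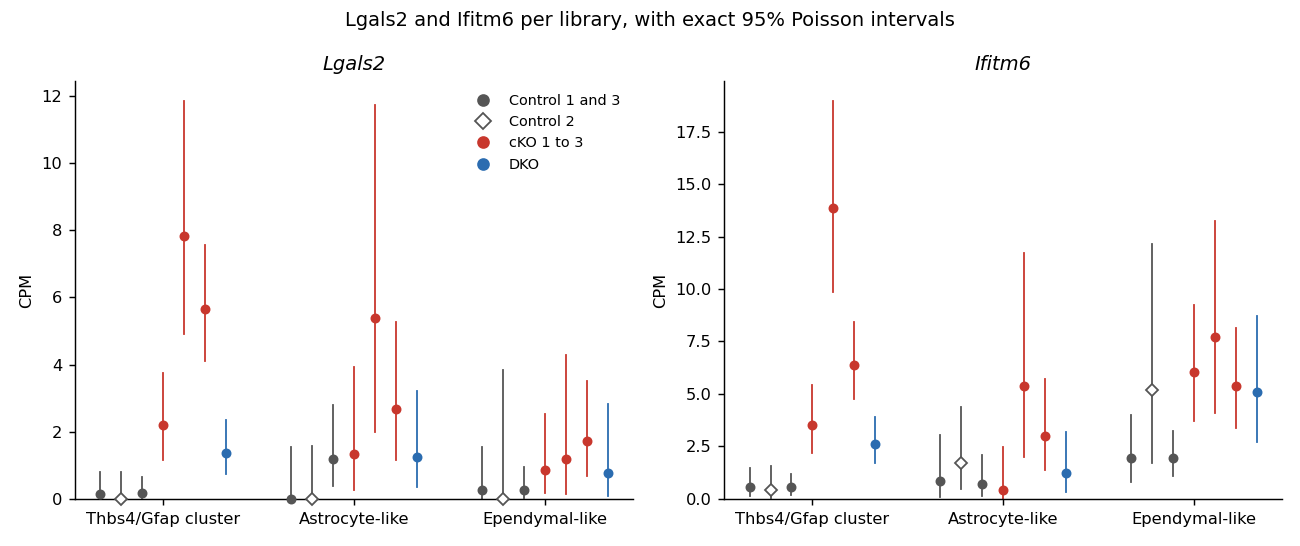
Lgals2 (left) and Ifitm6 (right) in CPM per library in the Thbs4/Gfap cluster, astrocyte-like and ependymal-like cells, with exact 95% Poisson intervals of the UMI count as bars. In the Thbs4/Gfap cluster the 3 cKO libraries lie at 2.19 to 7.82 CPM for Lgals2 and 3.54 to 13.9 CPM for Ifitm6, above the DKO library at 1.37 and 2.64 CPM and the controls at up to 0.18 and 0.57 CPM. The bars of the DKO library reach past the lowest cKO values.

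Within the Thbs4/Gfap cluster, the cells with an Lgals2 UMI and those with an Ifitm6 UMI were in part the same. In cKO libraries 1, 2 and 3, 54.5%, 37.5% and 11.4% of the Lgals2 cells also had an Ifitm6 UMI, against 1.47%, 8.63% and 6.48% of the other cells. The counts behind these shares were 6 of 11, 6 of 16 and 4 of 35 cells. Lgals2 cells were also deeper, with medians of 10495, 21775.5 and 16528 UMIs against 5267.5, 11104 and 10227 UMIs in the other cells, and the part of depth in the shared detection was not tested.

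Prm1, a gene seen almost only in the Cre-carrying libraries (0, 0.22 and 0 CPM in the Control libraries, 152 to 432 CPM in the cKO libraries and 159.9 CPM in the DKO library), was detected in most of these cells. Of the cells with an Lgals2 or Ifitm6 UMI, 79.2%, 84.8% and 93.4% had a Prm1 UMI in cKO libraries 1, 2 and 3 and 85.7% in the DKO library. The other cells had one in 24.9%, 68.9%, 74.0% and 38.6%. Here too the Lgals2 or Ifitm6 cells were deeper, with 9984 to 19607 UMIs at the median against 5249 to 10951.5 UMIs, so depth and Prm1 cannot be told apart in these shares. cKO library 1, where Ifitm3, Lgals3 and Lgals1 lay near the controls, also had the lowest share of cells with Prm1 among the cKO libraries, 26.4% against 71.4% and 76.2%. Its cells were also shallower: those without an Lgals2 or Ifitm6 UMI had a median of 5249 UMIs, against 10951.5 and 10019.5 UMIs. The part of depth in these shares and of Prm1 in the values of the 3 genes was not tested.

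Whether the set differed between cKO and Control libraries in the other 10 classes was tested on UMI sums per library with the quasi-likelihood test of edgeR, adjusted over all genes of a class. Of 90 combinations of gene and class, 62 passed the filter on low counts: Lgals1, Lgals3, Lgals8, Ifitm2 and Ifitm3 in all 10 classes, Ifitm10 in 5, Lgals9 in 3, Lgals2 in astrocyte-like and oligodendrocyte-like cells, and Ifitm6 in astrocyte-like and ependymal-like cells. edgeR called 0 of the 62. Of all genes tested it called 1.25% in astrocyte-like, 0.194% in ependymal-like, 0.0754% in neuron-like and 0.029% in neuroblast-like cells, and 0% in each of TAP-like, OPC-like, oligodendrocyte-like, endothelial-like, mural-like and microglia-like cells. At an unadjusted p under 0.05 there were 11 of the 62 tests, 5 higher and 6 lower in cKO, beside 5.35% of all tests. The filter can be passed through 1 library, and 9 of the 62 reached its minimum in libraries of only 1 of the 2 groups, so they are no support for a difference. Through cKO alone these were Lgals2 and Ifitm6 in astrocyte-like cells and Lgals3 in microglia-like cells, and through Control alone Lgals1, Lgals3 and Ifitm10 in neuron-like cells, Lgals3 in OPC-like and endothelial-like cells and Ifitm10 in oligodendrocyte-like cells. Of the other 53 tests, 7 (13.2%) had an unadjusted p under 0.05, 3 higher and 4 lower in cKO, beside 4.97% of all genes that reached the minimum in both groups. DESeq2 called 1 of the 62, Lgals3 in microglia-like cells, beside 0.418% of all tests over the 10 classes and 0.0102% in that class.

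In 14 of the 62 tests the cKO and Control libraries did not overlap, beside 10.5% of all genes tested in these classes. In 5 of them cKO was higher (3.57% of all genes) and in 9 lower (6.89% of all genes). Among the 53 that reached the filter minimum in both groups, 8 (15.1%) did not overlap, 3 higher and 5 lower, beside 9.62% of such genes. Without Control library 2, Ifitm2 in astrocyte-like, endothelial-like and mural-like cells and Lgals9 in endothelial-like cells also lay higher in cKO without overlap. Lgals9 in ependymal-like, Lgals3 in TAP-like and Ifitm2 in oligodendrocyte-like cells also lay lower. The share of all genes was not counted without that library, so these pairs are not read as differences. With pooled mice and 3 libraries a group, the p-values measure the spread between libraries, and in sums over a class fewer expressing cells and less RNA per cell cannot be told apart.

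**Figure D3:**
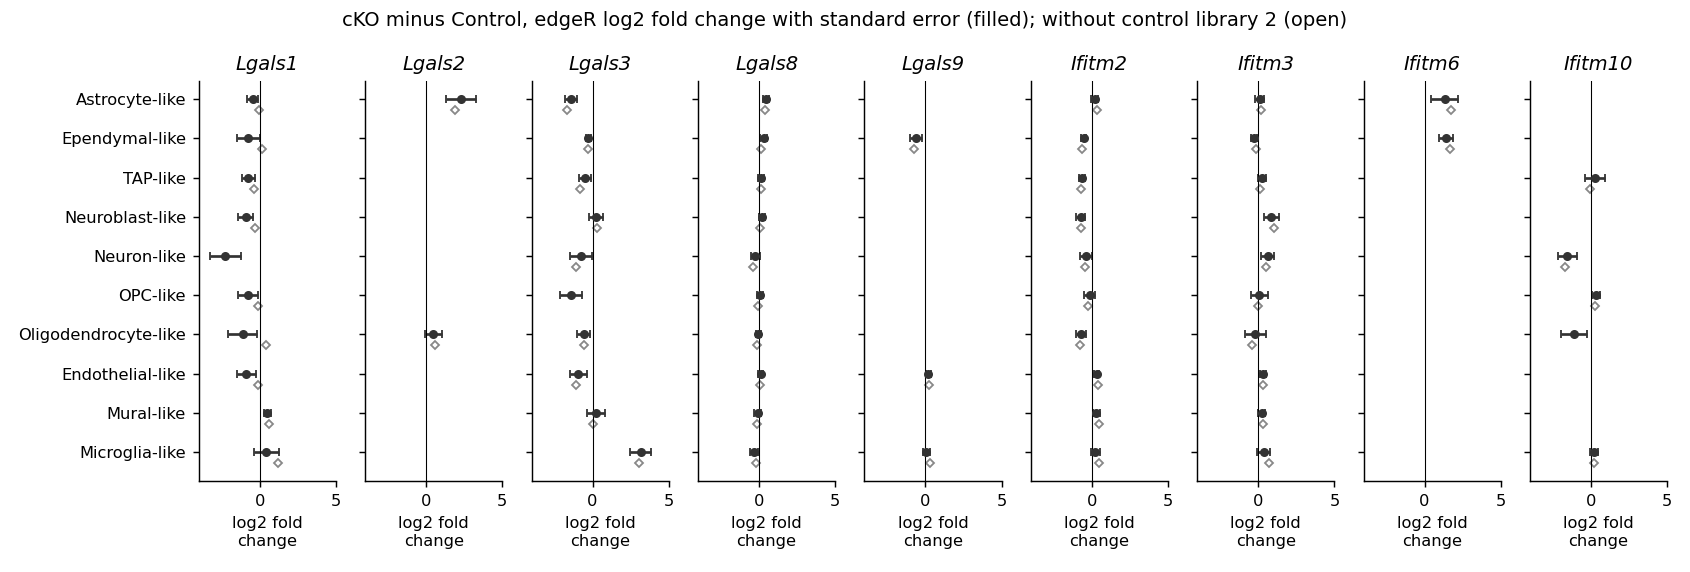
edgeR log2 fold change of cKO minus Control for each gene in the 10 classes outside the Thbs4/Gfap cluster (filled points, bars are standard errors), and the value without Control library 2 (open diamonds). Points are missing where a gene did not pass the filter, and 9 of the 62 passed it through 1 group alone. Lgals3 lies below 0 in astrocyte-like, OPC-like and endothelial-like cells and at 3.14 in microglia-like cells, and the Lgals1 values below 0 move toward or past 0 without Control library 2, except in neuron-like cells, which have no value without it.

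Lgals3 was lower in all 3 cKO libraries than in all 3 Control libraries in 5 classes, of which OPC-like and endothelial-like cells reached the filter minimum through Control alone. In astrocyte-like cells it was at 20.1, 8.09 and 13.1 CPM in the Control libraries and at 7.15, 6.29 and 2.67 CPM in the cKO libraries. The log2 fold change was -1.42 (SE 0.41, unadjusted p 0.00332, adjusted p 0.135 in edgeR). Other settings did call Lgals3 there, and these settings also called more of all genes than the 1.25% above. The adjusted p was 0.00595 with the replicate number as a block (log2 fold change -1.49, 4.34% of all genes called), 0.00850 with no filter (2.24%) and 0.0277 without cKO library 1 (4.25%). Within the Cell Ranger versions the difference was -7.37 CPM (6.0.1) and -10.4 CPM (6.1.1). Markers of other cell types also moved in the astrocyte-like sums: the 6 fibroblast markers together were at 31.8, 39.6 and 26.5 CPM in the Control libraries and 18.3, 8.09 and 5.34 CPM in the cKO libraries, and the 6 endothelial markers at 5.86, 17.5 and 21.7 CPM against 28.2, 53.0 and 46.1 CPM. The 6 OPC markers were at 33.4 to 51.9 CPM against 16.2 to 28.6 CPM, and the T cell and border macrophage markers, at most 7.19 and 1.34 CPM in any of these libraries, were higher in cKO without overlap. The 6 astrocyte markers of the class itself were at 4494, 4141 and 4430 CPM against 4999, 5145 and 5067 CPM, also without overlap. The 6 stem cell markers were at 1425 to 1653 CPM against 1156 to 1532 CPM, with overlap. At most 4 of the fibroblast, 1 of the endothelial and 3 of the OPC markers were at 0 in any library. The part of all these markers in the astrocyte-like differences of Lgals3 and Lgals8 was not tested. In ependymal-like cells, where it is highest, Lgals3 was at 271, 226 and 232 CPM against 224, 187 and 173 CPM, with a log2 fold change of -0.27 (SE 0.14, adjusted p 0.696). In OPC-like, oligodendrocyte-like and endothelial-like cells Lgals3 averaged 3.32, 2.53 and 6.03 CPM in the Control libraries and 1.07, 1.67 and 2.75 CPM in the cKO libraries. The log2 fold change in oligodendrocyte-like cells was -0.58 (adjusted p 1.00 in edgeR), and the other 2 classes are given as values only. All OPC-like and oligodendrocyte-like values of these libraries lay within the 0.53 to 4.95 CPM of neuron-like cells, so these pairs are not read as differences.

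In microglia-like cells Lgals3 was higher in cKO, at 7.36, 4.15 and 5.34 CPM in the Control libraries and 11.7, 57.6 and 77.9 CPM in the cKO libraries. The gene passed the filter there through the cKO libraries alone, so the fitted log2 fold change of 3.14 (SE 0.71) and the calls that DESeq2 and other settings made are no support for a difference. A few cells carried the counts. In cKO library 2, all 18 Lgals3 UMIs came from 1 of 47 cells, and in cKO library 3, 69 of 75 UMIs came from 3 of 173 cells, with 50 UMIs in the highest cell. The Control libraries held at most 2 Lgals3 UMIs in any microglia-like cell. The share of cells with an Lgals3 UMI was 2.63%, 2.47% and 2.89% in the Control libraries and 4%, 2.13% and 5.20% in the cKO libraries, which overlapped. The 6 border macrophage markers were summed to 291 to 696 CPM in the Control libraries and 396 to 675 CPM in the cKO libraries, and the 6 monocyte and neutrophil markers to 1.84 to 6.22 CPM and to 205, 6.40 and 1.04 CPM, with 4 or 5 of the 6 at 0 in each of these libraries except cKO library 1. Their part in the Lgals3 values was not tested.

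**Figure D4:**
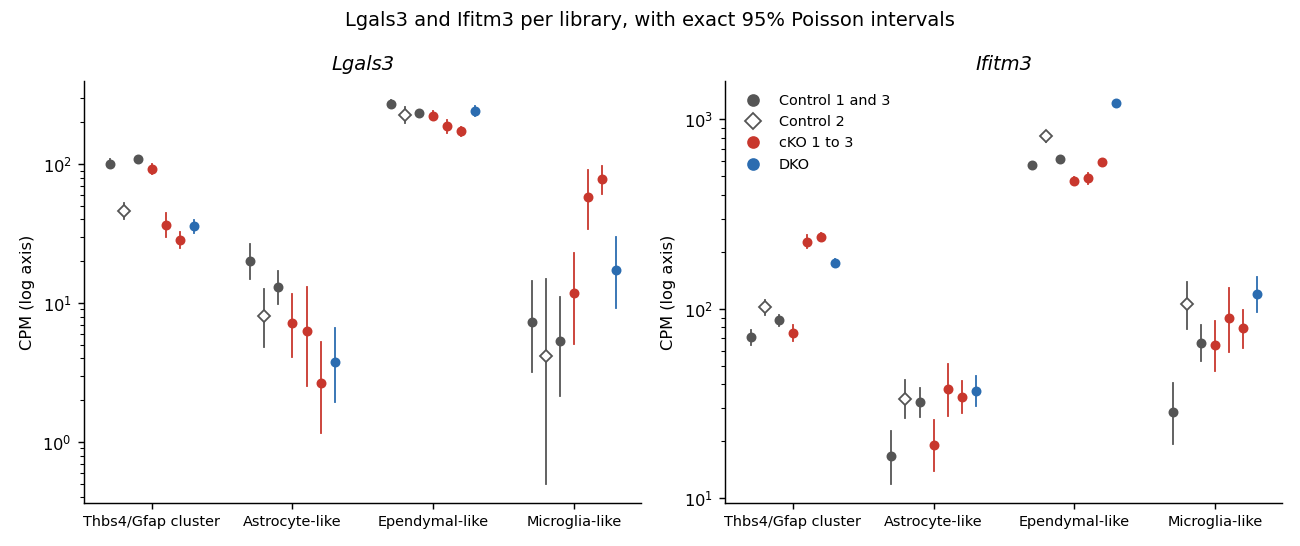
Lgals3 (left) and Ifitm3 (right) in CPM per library on a log axis in 4 classes, with exact 95% Poisson intervals of the UMI count as bars. In astrocyte-like cells the cKO libraries lie below the controls for Lgals3, at 2.67 to 7.15 CPM against 8.09 to 20.1 CPM, and in microglia-like cells above them; Ifitm3 reaches 1219 CPM in the ependymal-like cells of the DKO library.

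The other galectins were not called by edgeR in the reported fit outside the Thbs4/Gfap cluster. Lgals2 in astrocyte-like cells was at 0, 0 and 1.19 CPM in the Control libraries and 1.34, 5.39 and 2.67 CPM in the cKO libraries, on 5 and 17 UMIs. These values are a description, since the gene passed the filter only through the cKO libraries. With cells assigned one by one from their markers in place of clusters, Lgals2 in astrocyte-like cells was at 0, 0 and 0.77 CPM against 3.39, 8.77 and 4.86 CPM. Of the 3127 cells so assigned, 1086 (34.7%) lay in the Thbs4/Gfap cluster, with 54 of their 79 Lgals2 UMIs, so these values rest mostly on cells of the cluster the gene was chosen in. The share in that cluster differed between the groups without overlap, at 27.5%, 21.2% and 25.8% of the assigned cells in the Control libraries and 33.6%, 51.3% and 48.5% in the cKO libraries. In oligodendrocyte-like cells, which hold the most Lgals2 UMIs, the gene was at 0.69, 1.29 and 1.42 CPM against 0.79, 2.59 and 1.55 CPM, with overlap (log2 fold change 0.48, SE 0.54). Lgals2 in ependymal-like cells, below the filter, was at 0.28, 0 and 0.26 CPM against 0.86, 1.19 and 1.71 CPM, on 3 and 12 UMIs.

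Lgals8 in astrocyte-like cells was at 28.1, 29.0 and 33.1 CPM in the Control libraries and 43.4, 46.7 and 36.1 CPM in the cKO libraries. All 3 cKO libraries were higher, by 0.46 on the log2 scale (SE 0.19, adjusted p 0.366 in edgeR). Lgals9 in endothelial-like cells ran from 104 to 127 CPM in the Control libraries and from 116 to 132 CPM in the cKO libraries, with a log2 fold change of 0.18 (SE 0.16) whose interval of -0.13 to 0.49 bounds the difference. Without Control library 2 the log2 fold change was 0.23, and the groups did not overlap. As the share of all genes was not counted there, this is not read as a difference. Lgals1 in mural-like cells was at 119, 164 and 154 CPM against 167, 264 and 173 CPM, a log2 fold change of 0.51 (SE 0.22, adjusted p 1.00).

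Among the Ifitm genes, Ifitm6 was higher in every cKO library than in every Control library in ependymal-like cells. It was at 1.95, 5.21 and 1.95 CPM in the Control libraries and 6.03, 7.73 and 5.38 CPM in the cKO libraries, without overlap. The log2 fold change was 1.41 (SE 0.45, unadjusted p 0.00808, adjusted p 0.318 in edgeR), on 27 and 56 UMIs, and 1.70 without Control library 2. Of the Control libraries, only that one reached the filter minimum of 2.87 CPM. Without it no Control library reached that minimum, so the value of 1.70 is a description only. Ifitm6 in astrocyte-like cells was at 0.84, 1.70 and 0.72 CPM against 0.45, 5.39 and 3.01 CPM, with overlap. Choroid plexus markers, 6 in number, summed to 519 to 2496 CPM in the ependymal-like cells of the Control libraries and to 144 to 657 CPM in the cKO libraries, with overlap. In the same class and without overlap, the 6 mural markers were higher in cKO (316 to 415 against 505 to 560.1 CPM), and the 6 oligodendrocyte markers (374 to 582 against 156 to 326 CPM) and 6 fibroblast markers (37.2 to 41.6 against 15.2 to 30.7 CPM) were lower. The part of these markers in the Ifitm6, Ifitm2 and Lgals3 values of the class was not tested.

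Ifitm2 was lower in cKO without overlap in ependymal-like and TAP-like cells. In ependymal-like cells it was at 57.3, 38.5 and 45.4 CPM in the Control libraries and 35.6, 28.5 and 30.8 CPM in the cKO libraries, a log2 fold change of -0.54 (SE 0.16, adjusted p 0.280 in edgeR). In TAP-like cells it was at 14.6, 14.7 and 19.4 CPM against 11.3, 9.81 and 8.61 CPM, a log2 fold change of -0.65 (SE 0.20, adjusted p 0.549 in edgeR). In neuroblast-like cells the log2 fold change of Ifitm2 was -0.73 (SE 0.27, adjusted p 0.513 in edgeR), with overlap. Where Ifitm2 is highest it went the other way with overlap, by 0.30 (SE 0.22) in mural-like and 0.32 (SE 0.18) in endothelial-like cells. Without Control library 2 these were 0.45 and 0.42, without overlap. The share of all genes without overlap was not counted there, so these are not read as differences. Ifitm3, the interferon-induced gene with the most UMIs of the set (58704), overlapped between the groups in each of the 10 classes. In ependymal-like cells it was at 573, 813 and 618 CPM against 474, 489 and 594 CPM. Ifitm10 in microglia-like cells was at 30.4 to 36.6 CPM and 35.3 to 38.4 CPM, a log2 fold change of 0.21 with an interval of -0.30 to 0.72. In neuron-like cells Ifitm10 was at 7.22, 3.04 and 3.19 CPM against 2.64, 0.71 and 1.00 CPM, a description only, since the gene passed the filter there through Control alone.

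The share of cells with at least 1 UMI was compared after each cell had been thinned to 2000 UMIs, with shallower cells left out. With 3 libraries against 3, an exact two-sided permutation test cannot go below 0.1. Of 62 comparisons, 7 reached that value, 2 of them with higher shares in cKO. Among all genes tested in these classes, the shares of 10.2% did not overlap. The 7 of 62 are close to that, so they are not read as a result about the set. The smallest value after Benjamini-Hochberg adjustment of these exact tests was 0.744. In astrocyte-like cells the share with an Lgals3 UMI was 3.31% ± 1.32 (SD, n = 3) in the Control libraries and 0.78% ± 0.68 in the cKO libraries, and with an Lgals8 UMI 5.66% ± 0.88 and 9.06% ± 1.07. The share with an Ifitm2 UMI was higher in cKO in astrocyte-like cells (3.08% ± 0.32 and 5.26% ± 1.45) and lower in ependymal-like cells (9.45% ± 1.41 and 5.61% ± 0.15). The UMI sums of Ifitm2 in astrocyte-like cells overlapped, with a log2 fold change of 0.19 (SE 0.23). The Lgals8 share in microglia-like cells was 16.4% ± 2.07 and 9.55% ± 3.64, and the Lgals1 share in oligodendrocyte-like cells 1.08% ± 0.97 and 0.18% ± 0.19, a difference of -0.90 percentage points, or -0.34 without Control library 2. The last of the 7 was Lgals3 in endothelial-like cells, at 1.21% ± 0.22 and 0.69% ± 0.29. Droplets also pick up free RNA. After the same thinning, neuron-like cells had an Lgals3 UMI in 0% to 1.21% of cells and an Ifitm3 UMI in 0% to 4.55% of cells over the 7 libraries. Such shares are not given for Lgals1, Lgals8 and Ifitm2, and the part of free RNA in their values above was not tested. The Lgals3 shares of cKO astrocyte-like cells, at 0% to 1.24%, and the mean shares of endothelial-like cells in both groups reached about as high. Expression and free RNA cannot be told apart in these shares, and the endothelial-like pair is not read as a difference. Ependymal-like cells had an Ifitm3 UMI in 47.7% to 74.2% of cells and an Lgals3 UMI in 26.5% to 38.4%.

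The DKO library was compared with the same 3 Control libraries, so its differences and those of the cKO libraries share their controls, and its single value was assumed to vary like the other groups. Leaving out Lgals2 and Ifitm6 in the Thbs4/Gfap cluster, whose low Control values were part of their choice, edgeR called 0 of 67 tests in 11 classes, beside 0.0386% of all tests, and 7 had an unadjusted p under 0.05, beside 5.05% of all tests. In the Thbs4/Gfap cluster, Lgals2 was at 1.37 CPM (95% Poisson interval 0.73 to 2.34, 13 UMIs) and Ifitm6 at 2.64 CPM (1.71 to 3.89, 25 UMIs). Both values lay above every Control library and below every cKO library, but their intervals include the values of cKO library 1, 2.19 and 3.54 CPM. Prm1 was seen in 40.1% of the cluster's cells in the DKO library. In cKO libraries 1, 2 and 3 it was seen in 26.4%, 71.4% and 76.2%. The part of Prm1 in this order was not tested. These values are given without a test.

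Of the 7 tests of the DKO library with an unadjusted p under 0.05, 4 were of Ifitm3. In ependymal-like cells it was at 1219 CPM, above the 6 other libraries at 474 to 813 CPM, with a log2 difference from the Control libraries of 0.96 (SE 0.27, adjusted p 0.515 in edgeR). Ifitm3 was also above every Control and cKO library in TAP-like cells (17.5 CPM against at most 10.3 CPM), neuroblast-like cells (20.5 against at most 18.2 CPM) and neuron-like cells (18.6 against at most 12.8 CPM). Its medians in these classes were close, at 9.26, 11.5 and 10.5 CPM. Free RNA and expression cannot be told apart in the DKO values of these classes, and the part of free RNA in them was not tested. The choroid plexus markers of the ependymal-like cells were also highest in the DKO library, at 3250 CPM. Lgals3 in the DKO library was at 35.7 CPM in the Thbs4/Gfap cluster and 3.76 CPM in astrocyte-like cells, below all Control libraries in both. The astrocyte-like difference was -1.82 on the log2 scale (SE 0.60, adjusted p 0.459 in edgeR), with the error taken from the spread of the replicated groups. Ifitm2 in OPC-like cells was at 3.35 CPM in the DKO library and 7.59 to 10.3 CPM in the Control libraries. Lgals3 in TAP-like cells was at 3.42 CPM in the DKO library and 5.08 to 14.2 CPM in the Control libraries, a log2 difference of -1.53. The value of Lgals3 in the Thbs4/Gfap cluster was not among the 7 tests.

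Genes linked to the set by family or pathway were counted in the same fits over the 10 tested classes. Neither edgeR nor DESeq2 called any of 5 other galectins (20 tests, 1 at an unadjusted p under 0.05), 3 other Ifitm genes (6 tests, 1), 10 galectin binding partners (76 tests, 8), 8 enzymes of N-glycan branching (78 tests, 2) or 4 interferon receptor genes (40 tests, 1). Over all genes, 5.35% of tests had an unadjusted p under 0.05. Of 24 interferon response genes, 21 of 171 tests (12.3%) did, and edgeR called 1, in astrocyte-like cells, where 13 genes passed the filter and 1.25% of all genes were called. This was Ifit3, an interferon-induced antiviral gene, at 12.1, 11.9 and 7.87 CPM in the Control libraries and 19.2, 30.5 and 21.0 CPM in the cKO libraries. Its log2 fold change was 1.14 (SE 0.25, adjusted p 0.0337 in edgeR and 0.0555 in DESeq2), and without Control library 2 the adjusted p of Ifit3 was 0.103. The median log2 fold change of the 13 genes was -0.13, with 5 above 0, beside a median of -0.0049 over all genes tested. In ependymal-like cells, where Ifitm6 was higher in cKO, the median of 23 interferon response genes was -0.45, with 5 above 0, beside 0.0030 over all genes. Mural-like and endothelial-like cells had medians of 0.41 and 0.18, with 16 of 17 and 20 of 24 above 0, beside 0.0067 and 0.0093 over all genes, and none of these genes was called in either class by edgeR or DESeq2. Microglia-like cells had a median of 0.27 (12 of 18 above 0). OPC-like and oligodendrocyte-like cells both had -0.34 (5 of 15 and 4 of 20). The medians were -0.01, -0.13 and -0.03 in TAP-like, neuroblast-like and neuron-like cells (10 of 21, 4 of 12 and 3 of 8).

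The genes whose levels followed each member most closely over 14 clusters of the Control libraries were found by the Pearson correlation of log2(CPM + 1) among 12770 genes. These 14 points share libraries, and their correlations are descriptions. Lgals9 was closest to Rin3, Map3k8 and H2-M3 (r of 0.98, 0.97 and 0.97), Lgals8 to Trim65, Nagpa and Irak4 (0.96, 0.93 and 0.92) and Lgals3 to Emp1, Cd44 and S100a4 (0.89, 0.88 and 0.88). Lgals1 was closest to Glipr1, Emp3 and Nppb (0.86, 0.86 and 0.85), a pattern that includes the shallow cells of Control library 2. Ifitm3 was closest to Ccdc102a, Ifih1, an interferon-induced RNA sensor, and Cavin1 (0.96, 0.95 and 0.93), and Ifitm2 to Ccn2, Rhod and Scarf2 (0.93, 0.93 and 0.92). Ifitm10 was closest to Zfp994, Cryl1 and Gm43462 (0.93, 0.90 and 0.88), Ifitm6 to Clec1b, Col13a1 and Hp (0.91, 0.89 and 0.89), and Lgals2, at a mean of 0.25 CPM, to Lmf1, Jam3 and Sgk2 (0.92, 0.88 and 0.88).

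Control library 2 held a group of cells that the other libraries lacked almost entirely. Of its 4732 cells, 1065 (22.5%) had under 2000 UMIs and at least 3 Lgals1 UMIs, while each other library had 0 to 2 such cells. Their median was 1284 UMIs, and they carried 70.1% of the 19905 Lgals1 UMIs of the library. Lgals1 was at 425 CPM over this library and at 131 CPM outside these cells, against 15.6 to 25.4 CPM in the other libraries. Of the 1065 cells, 1025 (96.2%) fell into 1 cluster of 1652 cells, which was led by Lgals1, Spp1, Lgals7, Hmga2 and Dcn and held 67.4% of all Lgals1 UMIs. It had 3 fibroblast markers raised (Dcn, Col1a2 and Col3a1), came to 73.4% from Control library 2, had a median of 1459 UMIs and was not compared between groups. Lgals1 in this cluster was at 8654 CPM in Control library 2 and at 132 to 579 CPM in the other libraries. Ifitm6 there was at 35.4, 0.49 and 79.9 CPM in Control libraries 1, 2 and 3, at 8.85 to 18.5 CPM in the cKO libraries and at 0 in the DKO library.

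Lgals1 was also high in the other classes of Control library 2. In neuron-like cells it was at 18.6 CPM there and at most 2.04 CPM in the other 6 libraries, in oligodendrocyte-like cells at 8.94 against at most 2.56 CPM, and in endothelial-like cells at 24.0 against at most 9.31 CPM. It exceeded the other 6 libraries in all classes except the Thbs4/Gfap cluster and mural-like cells. The fold changes of Lgals1 turned on this library in some classes, though that in mural-like cells was 0.51 with it and 0.58 without it. The log2 fold change of cKO minus Control was -0.74 in ependymal-like cells with it and 0.18 without it, -1.11 and 0.43 in oligodendrocyte-like cells, and -0.88 and -0.13 in endothelial-like cells. In neuron-like cells, where Lgals1 was lower in cKO without overlap but passed the filter through Control alone, the gene did not pass the filter without this library.

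**Figure D5:**
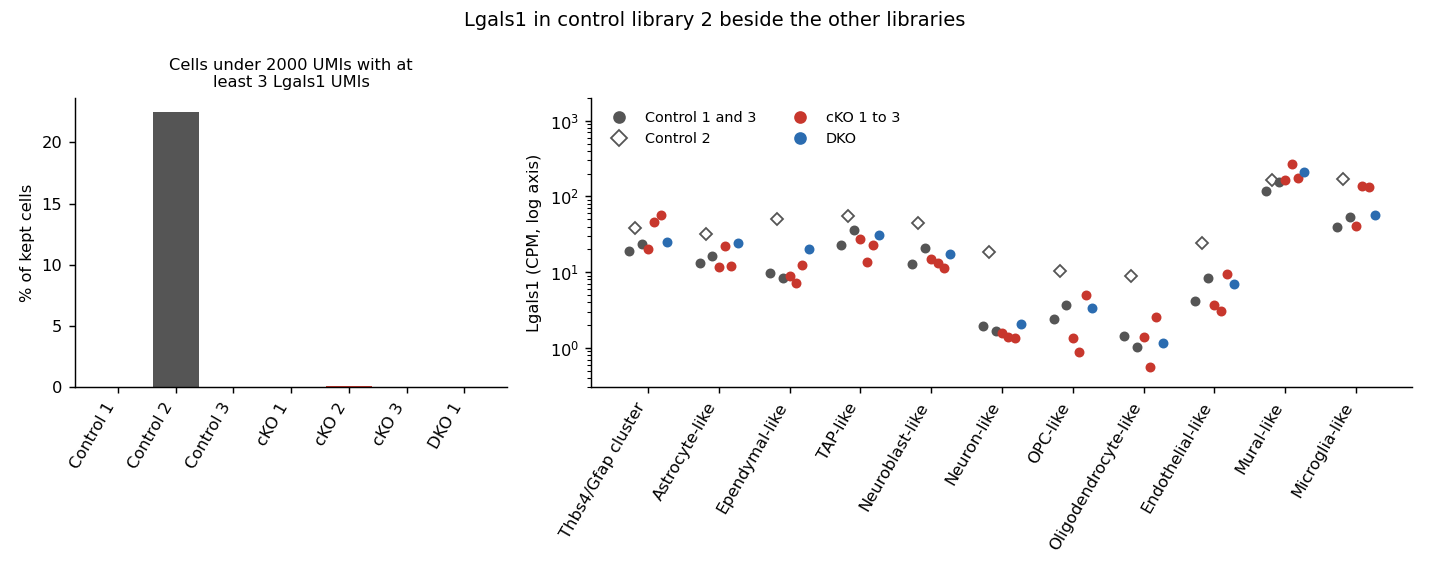
Left, the share of kept cells with under 2000 UMIs and at least 3 Lgals1 UMIs in each library, 22.5% in Control library 2 and at most 0.11% elsewhere. Right, Lgals1 in CPM per library and class on a log axis, where Control library 2 (open diamonds) lies highest in 9 of the 11 classes.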

How the data were processed

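Per the file headers and the study's methods, the authors sequenced 10x Genomics 3′ libraries and deposited raw counts, the UMIs that Cell Ranger assigned to a gene and cell barcode, with no normalization. The headers name version 6.0.1 for replicates 1 and 2 of Control and of cKO, and 6.1.1 for the rest; the submitters' processing notes name 6.1.1. Cells with 500 to 7000 detected genes and at most 10% mitochondrial counts were kept, and integrated and clustered in Seurat 5.3.0 (R 4.3.3) with 2000 variable features, 30 principal components and resolution 0.15. The 9 genes were taken out of the variable features, which had held Lgals1, Lgals3, Ifitm2 and Ifitm3. A class needed at least 3 of its markers in at least 10% of a cluster's cells and raised by 1 on the log2 scale. Scrublet (scanpy 1.11.5) marked 1043 cells (2.41%) as doublets, which were kept; its automatic threshold failed in Control library 1.

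Counts were summed per library and class with at least 10 cells. edgeR 4.0.16 (filterByExpr, passed where at least 1 library reached its minimum, TMM, robust quasi-likelihood test) was fitted over all 7 libraries, with Benjamini-Hochberg adjustment over all genes of a class and a threshold of 0.05; intervals of log2 fold changes are 1.96 SE to each side. DESeq2 1.42.0 was an alternative, and permutation tests used scipy 1.17.1 (Python 3.11.15). On simulated astrocyte sums of 12136 genes, edgeR recovered 109 of 200 genes changed by 1 on the log2 scale (54.5%) with 6 other calls, 196 changed by 2 (98%) with 14, and called 0 with none changed. Named genes were the 9 members, called genes of the related lists, the 3 genes most like each member among those with a mean of at least 5 CPM over the clusters, and Prdm16, Vcam1 and Prm1. The members and lists were chosen with earlier results of these data known. The joint detection of Lgals2, Ifitm6 and Prm1 in cells, the Lgals1-rich cells of Control library 2 and the alternative without shared barcodes were looked at after the data were seen. Libraries of equal number share no stated origin: all 3 pairs deviated together (r over 0.1) in endothelial-like and oligodendrocyte-like cells only, of 11 classes, with r from -0.11 to 0.48 over all pairs. Pairs 1 and 3 did so in every class, with r of 0.13 to 0.33 and 0.19 to 0.48. Pair 2, which holds Control library 2, had r of -0.11 to 0.15. A shared origin of pairs 1 and 3 is therefore not excluded, and the reported fit does not account for it. Other alternatives were no filter, library totals, the replicate number as a block, the Cell Ranger version as a term, each library left out, no DKO library, 5% mitochondrial counts, no doublets, cells of at least 2000 UMIs, resolution 0.3, cells assigned by their own markers, and shares unthinned or thinned to 1000 UMIs.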

Additional observations from a re-analysis of the deposited data

Results flagged for a closer look

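Among the combinations of gene and class that passed the filter, Lgals3 and Lgals1 had all 3 cKO libraries above the Control libraries in 1 class and below them in another. How many of all genes did so was not counted, so the pattern is not read as particular to the set. Of all tests, 3.57% were higher and 6.89% lower in cKO without overlap. Lgals3 was higher in the cKO libraries in microglia-like cells and lower in 5 other classes. Its log2 fold change in microglia-like cells exceeded that in astrocyte-like cells by 4.56, that in OPC-like cells by 4.56, that in endothelial-like cells by 4.08, that in oligodendrocyte-like cells by 3.73 and that in ependymal-like cells by 3.41. Lgals1 was higher in mural-like and lower in neuron-like cells, and these log2 fold changes differed by 2.75. The differences between classes were not tested. Lgals3 in microglia-like, OPC-like and endothelial-like cells and Lgals1 in neuron-like cells reached the filter minimum in libraries of 1 group only. The endothelial-like Lgals3 shares were close to those of neuron-like cells, as given above, and that pair is not read as a difference. The OPC-like and oligodendrocyte-like Lgals3 values lay within the range of neuron-like cells, and these pairs are not read as differences either. The microglia-like values of Lgals3 rest on 1 cell in cKO library 2 and 3 cells in cKO library 3. The size of the neuron-like fold change of Lgals1 and its passing of the filter rest on Control library 2. Without that library the groups still did not overlap, at 1.97 and 1.68 CPM against 1.59, 1.41 and 1.36 CPM, but the gene did not pass the filter.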

How the results depend on the processing

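The count of the 9 genes called between cKO and Control libraries outside the Thbs4/Gfap cluster was 0, and was 0 as well under library totals, the Cell Ranger version as a term, no DKO library, the 5% mitochondrial limit, no doublets, cells of at least 2000 UMIs, no shared barcodes and resolution 0.3. It was 1 with DESeq2 (Lgals3 in microglia-like cells), 4 with no filter (Lgals3 in astrocyte-like and microglia-like cells, Lgals1 in neuroblast-like and neuron-like cells), 2 with the replicate number as a block (Lgals3 in astrocyte-like and microglia-like cells) and 1 with cells assigned by their own markers (Lgals2 in astrocyte-like cells, mostly through cells of the Thbs4/Gfap cluster). The share of all genes called was 0.154% in the reported fit and 0.418%, 0.686%, 0.838% and 0.364% in these settings, in the same order. With each library left out in turn the count of these genes called was 0 to 2, and 2 without cKO library 1, where 1.23% of all genes were called. Comparisons of shares of cells without overlap numbered 7 of 62 (10.2% of all genes), and 4 unthinned (7.58%), 4 when thinned to 1000 UMIs (9.77%) and 10 without Control library 2 (17.8%). The DKO library had 0 calls with and without Control library 2. Why a setting changed a count was not tested. Depth limits Lgals2 and Ifitm6 most, with 304 and 386 UMIs in all.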
